A study of Mus musculus with 6 samples.

Results

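The genes described here are the protein-coding genes of the mouse cytosolic ribosome whose names begin with Rps or Rpl, and the protein-coding copies that carry such a name. They were chosen by gene name and biotype in the deposited expression table, leaving out the S6 kinases (Rps6k). The rule itself uses no expression value, but it was set with earlier results of these data known. The rule found 94 of the 54532 genes listed, of which 22046 are protein-coding. Of these 94 members, 77 were the parent genes that encode the ribosomal proteins, 16 were paralogs, retrogenes or pseudogene-named copies, and 1, Rps19bp1, was a protein that binds the ribosomal protein Rps19. The 77 parents comprised 31 proteins of the small subunit and 46 of the large subunit, which include the 3 stalk proteins Rplp0, Rplp1 and Rplp2.

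Transcriptome sequencing was performed in N2a (Neuro2A), a mouse neuroblastoma cell line, here labelled with the strain C57BL/6. One group was transfected with a negative control siRNA (si-NC, n = 3) and the other with an siRNA against circRtn4 (si-circRtn4, n = 3), a circular RNA made from exons of Rtn4 by back-splicing. The labels give growth medium with serum for both groups and name no age, passage, differentiation step or time after transfection. Nothing says that the 3 libraries of a group came from separate cultures, so the p-values measure the spread between these libraries, which may be technical.

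A ribosome holds a small subunit, which reads the mRNA, and a large subunit, which joins amino acids and releases the chain. Each subunit is built on ribosomal RNA from proteins that are nearly all made from single active genes and are needed in about equal numbers. The mRNAs of these proteins start with a C followed by a run of pyrimidines, the 5′ terminal oligopyrimidine (TOP) tract, through which mTOR signalling and Larp1 control their translation together. Neurons also translate on ribosomes in their axons and growing neurites. Ribosomal protein mRNAs have been copied back into the mammalian genome many times, and most of the resulting copies have no introns and carry no function that is known.

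The values are FPKM, reads normalized to gene length in kilobases and to the depth of the library. The recovered reads on listed genes were 13541198 to 15122063 per library. The neuroblastoma markers Phox2a (129 to 218 FPKM) and Hand2 (178 to 238 FPKM) were present in every library, whereas of the markers of other cell types Ptprc, Alb, Gfap and Col1a1 were each at most 0.393 FPKM, Pecam1 at most 0.777 FPKM and Cd68 at most 1.32 FPKM. The oligodendrocyte marker Mbp was 3.85 to 4.60 FPKM in si-NC and 2.88 to 4.48 FPKM in si-circRtn4. The catecholamine genes Th and Dbh were low, and the granule protein Chgb was 1167 to 1462 FPKM in si-NC and 298 to 478 FPKM in si-circRtn4. Its part in the differences of the ribosomal protein genes was not tested. Rtn4 was 61.0 to 69.8 FPKM in si-NC and 50.1 to 62.7 FPKM in si-circRtn4. This gene-level value does not tell linear from circular reads, so circRtn4 itself was not measured in these values.

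The sequences that matter most for reading the results are those of Rps27, which encodes a small subunit protein with a zinc finger, and of its copies. Rps27 (chr3:90212522-90213651, minus strand, 4 exons) and its retrogene Rps27rt (chr9:114982366-114982739, minus strand, 1 exon of 374 bases) have coding sequences of 255 bases that are 100% identical. The transcripts also share the 32 bases before the start codon and show 0 mismatches over 309 bases from it. The paralog Rps27l (chr9:66946086-66949516, plus strand, 4 exons), a gene that p53 can induce, differs from Rps27 at 61 of the 255 bases, and its identity is 76.1%. The first 30 coding bases are shown, from the GENCODE M21 transcripts on GRCm38, with the 10 bases at which Rps27l differs in capitals.
Rps27: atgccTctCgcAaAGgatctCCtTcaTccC
Rps27rt: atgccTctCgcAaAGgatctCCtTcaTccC
Rps27l: atgccCctGgcTaGAgatctGTtAcaCccT
A read that lies within the shared stretch of Rps27 and Rps27rt can therefore not be assigned to one of them by its letters. How the authors' counting placed such reads is not given in the sources used here. Across the parents, 31 of 77 had a coding sequence in which every stretch of 31 bases also occurred in another annotated gene. The median parent had 3.60% of such stretches to itself, and 4 parents had more than 50%.

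On the scale of the deposited values (FPKM per gene length, mean of 6 libraries), the parents ranged from 1.96 to 2239 FPKM with a median of 341.6 FPKM. Rplp1, an acidic protein of the stalk that recruits elongation factors to the large subunit, was the highest (1912 to 2564 FPKM over the libraries), and none of its libraries overlapped with those of another parent. Rpl8, which lies close to the peptidyl transferase center, Rplp0, the base of the stalk, Rpl41, the smallest ribosomal protein, and Rpl36 followed with means of 1380, 1273, 1214 and 1205 FPKM. The ranges of these 4 genes overlapped, so their order was not resolved. Rpl29, Rpl24 and Rpl21 had the lowest means of 1.96, 2.06 and 2.96 FPKM, and the libraries of these 3 overlapped as well.

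Much of this span depended on the copies, and little of it on the length. The gene length in the table covers all annotated exons and was 2.35 times the length of the principal transcript in the median parent and 9.80 times in Rps15a. When the reads of each parent were instead divided by its principal transcript, the range was 3.14 (Rpl24) to 3245 (Rpl41) reads per kilobase, scaled to library depth. When the reads of all genes elsewhere that hold at least 50% of the coding 31-base stretches of a parent were added, the standard deviation of the 77 log2 levels was 1.14, compared with 2.13 for the deposited FPKM and 1.96 for own reads per transcript length. This sum was chosen after the values were seen, and it covers 287 copy genes of 68 parents.

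The 10 parents with less than 50% of their summed reads carried most of that difference. Rpl26 held 1.79% of its summed reads, Rpl29 2.54%, Rps10 4.12% and Rpl21 6.26%. Rpl26 was listed with 132 to 245 reads per library, while the pseudogene Gm15772, which holds 84.8% of its coding 31-base stretches, had a mean of 8996 reads. Rps10 was listed with 100 to 213 reads, and its pseudogene Rps10-ps2 had a mean of 3379 reads. The deposited values of these parents thus describe only a small part of the reads summed over the parent and its copies. Whether the reads of the copies lie in the shared stretches was not tested, and the levels of such parents and copies are uncertain. With the copies added, Rpl24 (15.3 on this scale) remained the lowest parent. Rpl13a (66.5 on this scale) came next, and it kept 97.7% of the reads to itself.

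**Figure D1:**
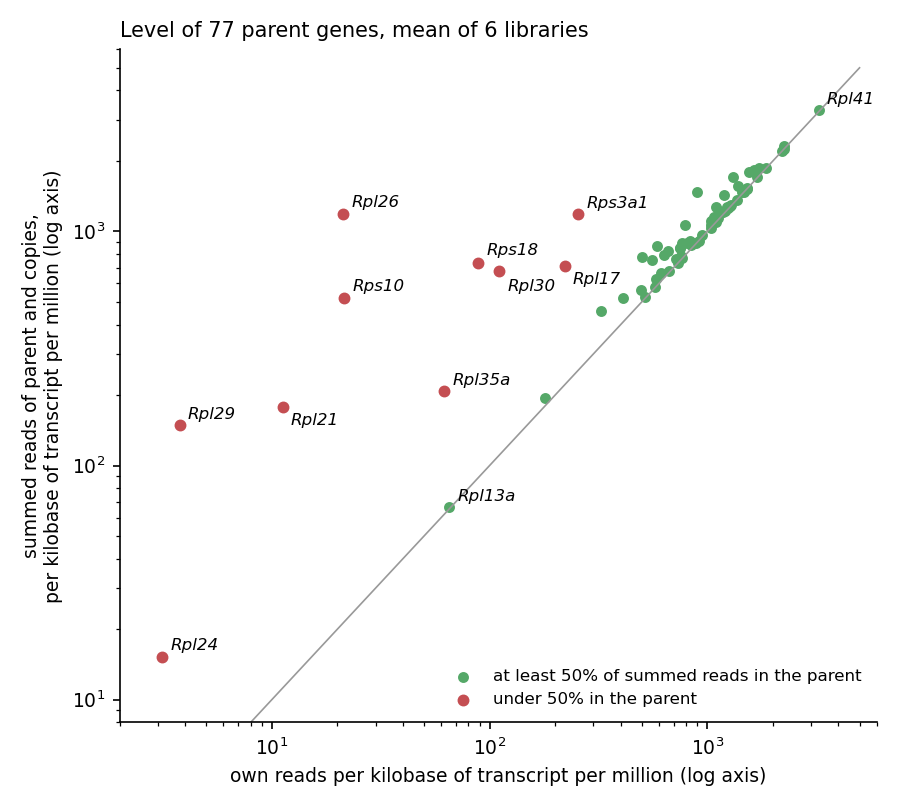
Level of each of the 77 parent genes as reads per kilobase of principal transcript, scaled to library depth, mean of 6 libraries, from the reads of the gene itself (x axis, log) and from the reads of the gene and its sequence copies (y axis, log). The 10 parents in red hold less than 50% of the summed reads and lie above the line of equality, for example Rpl26 and Rps10. Rpl24, also in red, and Rpl13a, which is not, stay low on both axes.

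To compare the knockdown with its control, log2(FPKM + 1) was fitted with limma across the 12749 genes whose mean reached 1 FPKM, and 89 members were tested. Rps27rt and Rpl7a rose after transfection with si-circRtn4 at a Benjamini-Hochberg adjusted p below 0.05, and 0 members fell. These 2 of 89 members stand beside 9.19% of all genes tested that were called in either direction, 4.36% higher and 4.82% lower. In this fit the members were thus not called more often than other genes. At an unadjusted p below 0.05, 10 members were higher and 1 was lower, compared with 13.1% and 12.8% of all genes. With the replicate number as a block, 5 members were called higher and 2 lower, against 9.29% and 9.75% of all genes. The exact permutation test of 3 against 3 libraries cannot go below p = 0.1.

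The 3 si-circRtn4 libraries lay above all 3 si-NC libraries for 16 members and below them for 0 members. Of all genes tested, 16.2% were separated upward and 15.5% downward, so the upward count was near the background and the downward count was under it. The log2 fold change was above 0 for 73 of 89 members and 65 of 77 parents, compared with 50.4% of all genes tested. The median log2 fold change of the parents was 0.10, with the middle 50% between 0.040 and 0.17, while the median of all genes tested was 0.0020. It was 0.10 in the small subunit and 0.10 in the large subunit. Of the parents, 14 of 77 were separated upward and the groups of the rest overlapped.

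**Figure D2:**
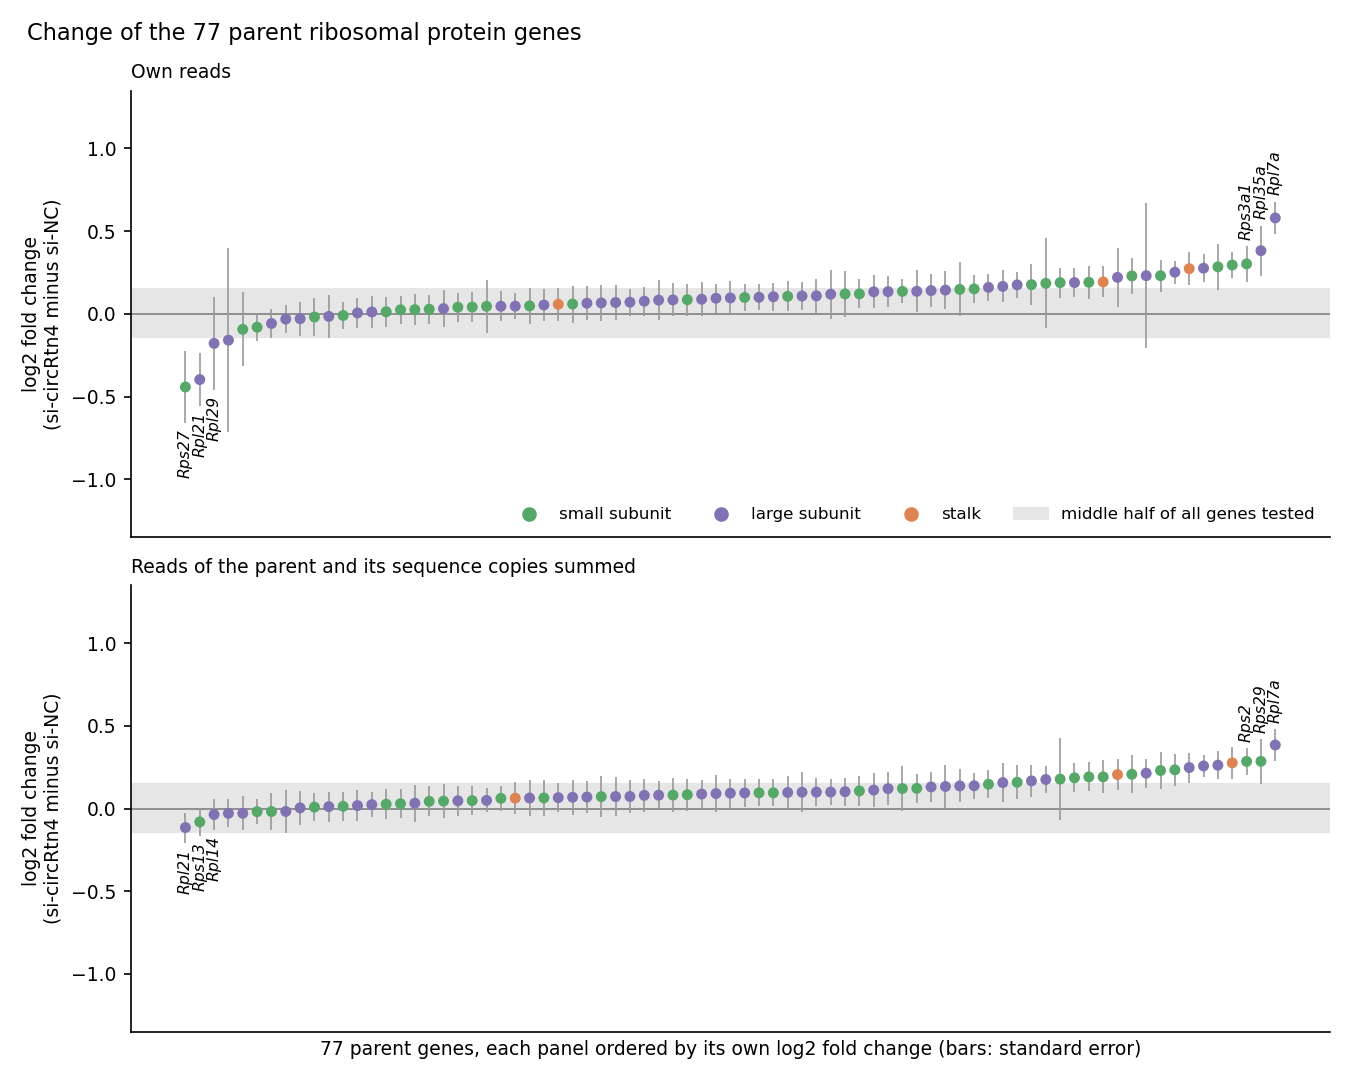
Log2 fold change of the 77 parents (si-circRtn4 minus si-NC, log2(FPKM + 1) scale, bars: standard error), ordered within each panel, from the reads of each gene (top) and with the reads of its sequence copies added (bottom). The grey band is the middle 50% of all genes tested. With own reads 65 parents lie above 0, and with summed reads 69 do, while Rps27, Rpl21 and Rpl29 no longer form a lower tail of that depth.

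The size of the parents' shift depended on single libraries, while its median stayed above 0 without any 1 of them. Of all recovered reads, 5.16% to 5.77% fell on the members under si-NC and 5.68% to 6.26% under si-circRtn4. The library si-circRtn4 replicate 3 had the highest value for 60 of the 77 parents, and si-NC replicate 2 had the lowest for 50. Without si-circRtn4 replicate 3, the median of the parents was 0.030 and 46 of 77 were above 0. Without si-NC replicate 2, the median was 0.051 and 54 were above 0. The short gene Gm23935, annotated as a miRNA, took 20.1% to 20.7% of the summed FPKM in si-NC and 13.5% to 18.8% in si-circRtn4, with the lowest share in si-circRtn4 replicate 3. With each library rescaled without Gm23935, the median log2 fold change was 0.12 for the parents and 0.023 for all genes tested, beside 0.097 and 0.0020 as reported.

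**Figure D3:**
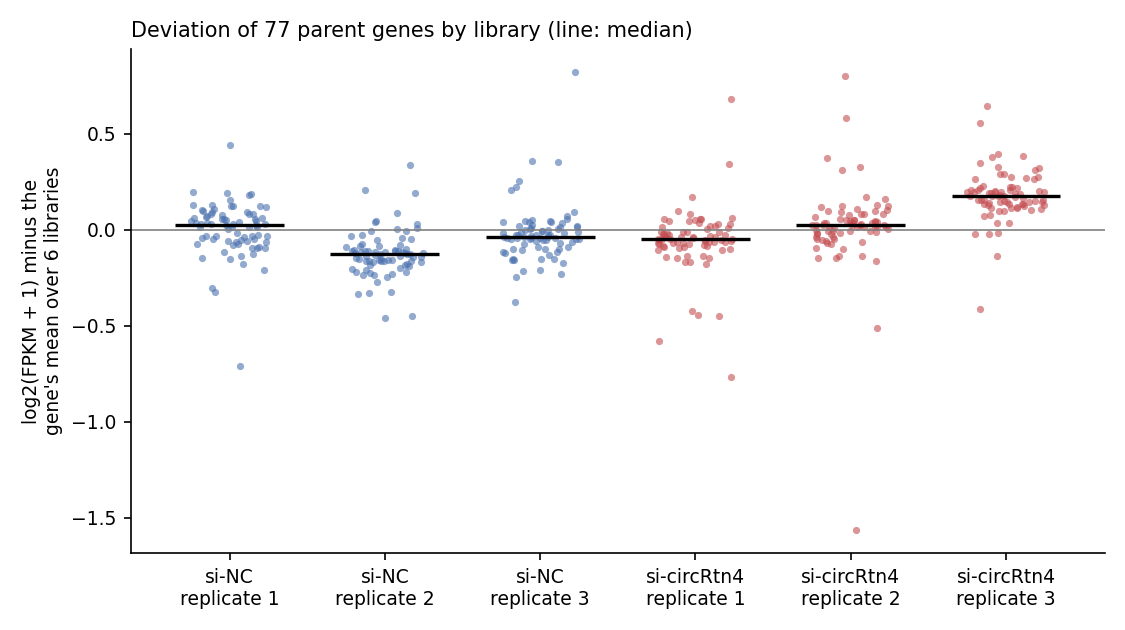
Deviation of log2(FPKM + 1) of each of the 77 parents from its own mean over the 6 libraries (y axis), by library (x axis), with the median as a line. The medians run from -0.13 in si-NC replicate 2 to 0.18 in si-circRtn4 replicate 3, and the remaining 4 libraries of both groups lie close to 0.

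Among the small subunit parents, 26 of 31 had a log2 fold change above 0, and 0 were called by limma. At an unadjusted p below 0.05 (limma), 3 were higher and 0 lower, beside 13.1% and 12.8% of all genes tested. The 6 of 31 that were separated upward were near the 16.2% of all genes tested. Rps2, which lines the path by which the mRNA enters, showed 598, 577 and 580 FPKM in si-NC and 688, 725 and 744 FPKM in si-circRtn4. All 3 si-circRtn4 libraries were above the control, and the log2 fold change was 0.30 ± 0.08 (SE) with an adjusted p of 0.0563 (limma). Rps2 passed the threshold with the replicate block (limma adjusted p = 0.0433). Rps3a1, a protein of the platform of the subunit, showed 242, 210 and 233 FPKM in si-NC and 263, 261 and 322 FPKM in si-circRtn4 (log2 fold change 0.30 ± 0.11, limma adjusted p = 0.128). Rps3, Rps4x and Rps7, also separated upward, differed by 0.14 to 0.19 on the log2 scale, and each had a limma adjusted p of at least 0.280.

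Among the small subunit parents that varied most, Rps27a encodes ubiquitin fused to a ribosomal protein. It was 268, 337 and 329 FPKM in si-NC and 221, 495 and 400 FPKM in si-circRtn4. The lowest and the highest library were both si-circRtn4, so the groups overlapped (log2 fold change 0.18 ± 0.27, limma adjusted p = 0.728). Its own reads were 90.9% to 97.5% of the summed reads. Its pseudogene Rps27a-ps2 had 331, 190 and 378 reads in si-NC and 320, 163 and 222 reads in si-circRtn4, so the 3 libraries with the most FPKM of Rps27a had the fewest reads of this copy.

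Among the 46 large subunit parents, 39 had a log2 fold change above 0, 1 was called higher and 8 were separated upward. Of all genes tested, 4.36% were called higher and 16.2% were separated upward. Rpl7a, a large subunit protein that contacts ribosomal RNA, was 144, 119 and 137 FPKM in si-NC (133.6 ± 12.9, SD) and 184, 211 and 205 FPKM in si-circRtn4 (199.9 ± 14.6, SD). The groups were well apart, with a fold of 1.49 and a log2 fold change of 0.58 ± 0.10 (SE, limma adjusted p = 0.0143). The call was lost without si-NC replicate 2 (0.50, limma adjusted p = 0.0548) and without si-circRtn4 replicate 2 (0.54, limma adjusted p = 0.0581). It was also lost with no filter on low values (limma adjusted p = 0.0560).

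Rpl7a has 16 sequence copies, and its own reads were 65.5% to 66.3% of the summed reads in si-NC and 74.0% to 78.5% in si-circRtn4. With the copies added, the values were 220, 182 and 207 FPKM in si-NC and 248, 269 and 277 FPKM in si-circRtn4. The difference was then smaller, at 0.38 ± 0.09 (SE, limma adjusted p = 0.0442). Rpl7a was the only one of the 77 summed parents that was called, beside 4.56% of all genes called higher in that fit. Its more abundant copies Rpl7a-ps5 (mean 703.5 reads, log2 fold change -0.11, limma adjusted p = 0.646) and Gm5854 (496.2 reads, 0.089, limma adjusted p = 0.736) were not called.

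Rpl12, which sits at the base of the stalk, was 252, 221 and 242 FPKM in si-NC and 273, 287 and 307 FPKM in si-circRtn4 (log2 fold change 0.28 ± 0.09, limma adjusted p = 0.0902). Rpl13a, a protein that also joins a complex that represses translation of inflammatory mRNAs, was 30.7, 28.5 and 28.7 FPKM in si-NC and 34.3, 34.5 and 36.3 FPKM in si-circRtn4. The groups of Rpl13a did not overlap (0.25 ± 0.07, limma adjusted p = 0.0623), and it was called with the replicate block (limma adjusted p = 0.0370). Rpl35a had the second largest log2 fold change of the parents (0.38 ± 0.15, limma adjusted p = 0.166), from 9.32, 6.51 and 6.26 FPKM to 8.83, 9.29 and 11.3 FPKM. Its groups overlapped, and it held 29.7% of its summed reads.

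At the low end, Rpl21 was 2.65, 3.92 and 3.97 FPKM in si-NC and 1.90, 2.80 and 2.55 FPKM in si-circRtn4 (log2 fold change -0.40 ± 0.16, limma adjusted p = 0.170). It was called lower with the replicate block (limma adjusted p = 0.0311). Its listed reads were 92 to 192 per library, and with its 19 copies added the log2 fold change was -0.12 (limma adjusted p = 0.477). Rpl29 had 11 to 45 reads per library and a log2 fold change of -0.18 ± 0.28 (limma adjusted p = 0.747), which became 0.049 when its copies were added. Rpl30 was 5.60 FPKM in si-circRtn4 replicate 2 and 15.9 to 30.3 FPKM in the other 5 libraries, while its summed reads lay between 5163 and 6440 in all libraries.

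All 3 stalk proteins had a log2 fold change above 0, and 2 of them were separated upward, beside 50.4% and 16.2% of all genes tested. Rplp1 was 2164, 1912 and 2005 FPKM in si-NC and 2278, 2509 and 2564 FPKM in si-circRtn4 (0.27 ± 0.10, limma adjusted p = 0.134). Rplp0 was 1293, 1134 and 1141 FPKM in si-NC and 1299, 1358 and 1416 FPKM in si-circRtn4 (0.19 ± 0.09, limma adjusted p = 0.246), so its groups were separated by a narrow gap. Rplp2, the partner of Rplp1 in the stalk, was 308 to 363 FPKM in si-NC and 323 to 371 FPKM in si-circRtn4, and these ranges overlapped.

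**Figure D4:**
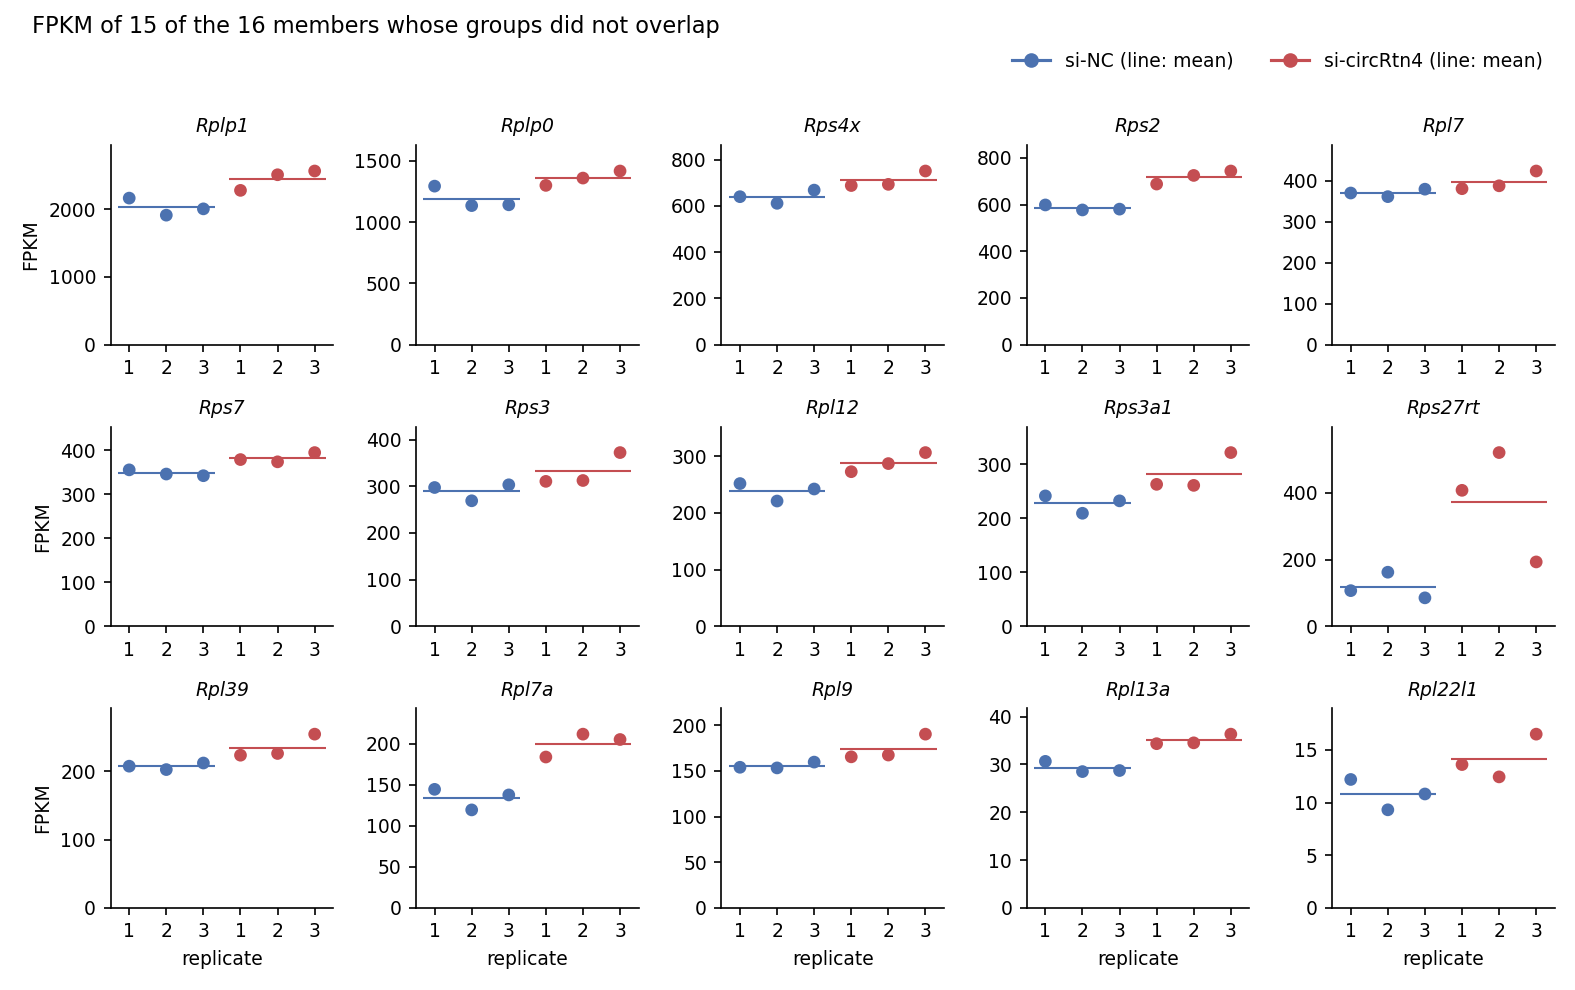
FPKM (y axis, from 0) in each of the 3 si-NC and 3 si-circRtn4 libraries (x axis) for 15 of the 16 members whose groups did not overlap, ordered by level, with group means as lines. The gap between groups is wide in Rpl7a and narrow in most of the others, such as Rplp0, Rpl7 and Rps4x. In Rps27rt the group means are far apart, yet si-circRtn4 replicate 3 (193 FPKM) lies near si-NC replicate 2 (162 FPKM).

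Rps27rt showed the largest difference of all members. It was 107, 162 and 85.2 FPKM in si-NC (118.0 ± 39.6, SD) and 408, 521 and 193 FPKM in si-circRtn4 (373.8 ± 167, SD), a fold of 3.01 with a log2 fold change of 1.59 ± 0.37 (SE, limma adjusted p = 0.0402). The si-circRtn4 replicate 3 library was much nearer to the control than the other 2. The call was lost on leaving out si-NC replicate 1, 2 or 3 (limma adjusted p = 0.0933, 0.0572 and 0.108) or si-circRtn4 replicate 1 or 2 (limma adjusted p = 0.118 and 0.114), with log2 fold changes of 1.29 to 1.84. Without si-circRtn4 replicate 3 it was 2.01 (limma adjusted p = 0.0136). With the replicate block the limma adjusted p was 0.00435.

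Rps27 had a log2 fold change of the opposite sign. It was 346, 256 and 293 FPKM in si-NC and 187, 178 and 311 FPKM in si-circRtn4 (log2 fold change -0.44 ± 0.22, limma adjusted p = 0.253). The groups overlapped because si-circRtn4 replicate 3 stayed at the level of the control, and without this library the log2 fold change was -0.70 (limma adjusted p = 0.0372).

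Counted in reads, Rps27 had 5452, 3852 and 4282 in si-NC and 2774, 2887 and 4720 in si-circRtn4. Rps27rt had 603, 874 and 446 reads in si-NC and 2169, 3032 and 1049 reads in si-circRtn4. The libraries with few Rps27 reads were thus those with many Rps27rt reads. Summed with a further copy, they gave 6065, 4733 and 4732 reads in si-NC and 4958, 5931 and 5781 reads in si-circRtn4, and these groups overlapped. The summed log2 fold change was 0.081 ± 0.10 (SE, limma adjusted p = 0.676). Of the summed reads, Rps27 held 81.4% to 90.5% in si-NC and 55.9%, 48.7% and 81.6% in si-circRtn4. Since the coding sequences shown above are identical, transcription of Rps27rt and a different placing of Rps27 reads cannot be told apart with these values.

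Rps27rt lies within Osbpl10, on the opposite strand, and no source used here states whether reads were counted by strand. Osbpl10 itself had a log2 fold change of -0.081 ± 0.087 (SE, limma adjusted p = 0.610). Rps27l, whose coding sequence can be told from both, was 72.7, 78.4 and 88.0 FPKM in si-NC and 75.5, 88.3 and 88.1 FPKM in si-circRtn4. Its groups overlapped, with a log2 fold change of 0.075 ± 0.10 (limma adjusted p = 0.700).

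Rpl17, a protein at the exit of the peptide tunnel, showed a similar mirror pattern with a pseudogene, but not along the groups. Rpl17 had 1443, 1636 and 3881 reads in si-NC and 2157, 4260 and 1709 reads in si-circRtn4. Rpl17-ps10 had 4898, 3463 and 1503 reads in si-NC and 3383, 1800 and 4940 reads in si-circRtn4. The libraries si-NC replicate 3 and si-circRtn4 replicate 2 had the most Rpl17 reads and the fewest Rpl17-ps10 reads. The summed reads with all 9 copies were 7265 to 8937 per library, and the summed log2 fold change was 0.069 ± 0.094 (SE, limma adjusted p = 0.700).

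**Figure D5:**
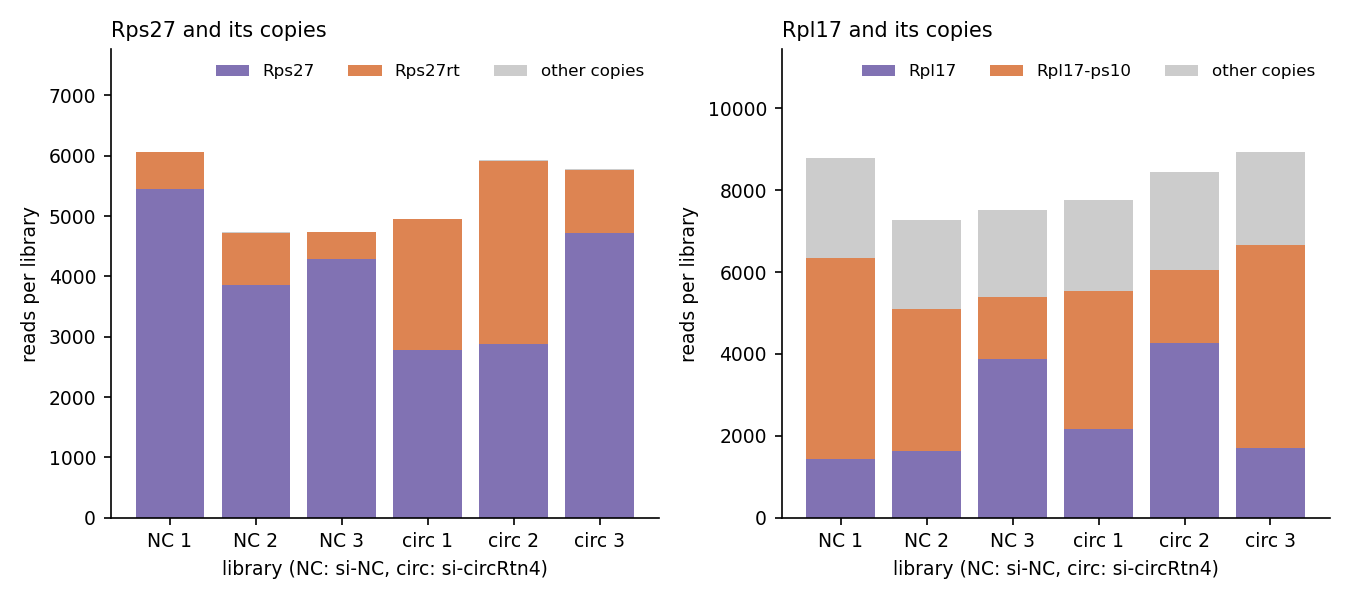
Reads per library (stacked bars, y axis from 0) of Rps27 with Rps27rt (left) and of Rpl17 with Rpl17-ps10 (right), with the other copies of each parent in grey, for 3 si-NC and 3 si-circRtn4 libraries. The share of Rps27rt is largest in si-circRtn4 replicates 1 and 2, whereas the share of Rpl17-ps10 is largest in si-NC replicate 1 and si-circRtn4 replicate 3.

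Of the 77 summed parents, 69 had a log2 fold change above 0 and 8 had one below, from -0.12 to 0.38 with a median of 0.093. The lower tail of the single genes, which Rps27 led at -0.44, ended at -0.12 in the sums. The 9 parents with no such copy had a median of 0.032 and 7 of 9 were above 0.

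Of the 16 paralogs and copies, 11 were tested. Rps27rt was called higher and 0 were called lower, beside 4.36% and 4.82% of all genes tested. Of the 11, 8 were above 0, and the median log2 fold change was 0.075. Rpl22l1, the paralog of the RNA-binding protein Rpl22, was 12.2, 9.31 and 10.8 FPKM in si-NC and 13.6, 12.4 and 16.5 FPKM in si-circRtn4. The groups did not overlap by a small margin (0.37 ± 0.13, limma adjusted p = 0.121), and the gene was called with the replicate block (limma adjusted p = 0.0441). Rpl22 itself was 164 to 174 FPKM in si-NC and 153 to 193 FPKM in si-circRtn4 (log2 fold change -0.029).

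Among the tested members, the other copies with coding sequences close to that of the parent did not follow Rps27rt. Sequence copies that are not members were called in both directions. For example, Gm5786 and Gm45855, copies of Rps2, were higher (0.64 and 0.34, limma adjusted p = 0.0250 and 0.0394). Gm7536, which holds 99.3% of the coding 31-base stretches of Rpl27a, was lower (-0.59, limma adjusted p = 0.0289). Rps12-ps3, which is 100% identical to Rps12 over 399 coding bases and lies within Pdzd8 on the opposite strand, was 353 to 392 FPKM in si-NC and 376 to 435 FPKM in si-circRtn4 (0.12 ± 0.09, limma adjusted p = 0.442). Rps12 was 273 to 335 FPKM in si-NC and 281 to 410 FPKM in si-circRtn4 (0.046 ± 0.16, limma adjusted p = 0.895). Rpl10-ps3 is also 100% identical to its parent over 645 coding bases, yet it had 17 to 37 reads per library, compared with 17692 to 21662 for Rpl10, which completes the large subunit before it joins the small one. An identical coding sequence thus went with very different shares of the reads. Rpl9-ps6, which differs from Rpl9 at 1 of 579 coding bases, was 49.4 to 74.5 FPKM in si-NC and 52.2 to 63.4 FPKM in si-circRtn4 (log2 fold change -0.064).

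Rpl39l, a paralog known from the testis that differs from Rpl39 at 23 of 156 coding bases, was 39.1 to 42.8 FPKM in si-NC and 40.9 to 44.3 FPKM in si-circRtn4 (0.044 ± 0.072, limma adjusted p = 0.754). Its parent Rpl39 was 203 to 212 FPKM in si-NC and 224 to 255 FPKM in si-circRtn4, with groups that did not overlap (0.18 ± 0.08, limma adjusted p = 0.220). Rpl7l1, a nucleolar relative of Rpl7, was 27.7 to 31.8 FPKM in si-NC and 23.1 to 28.3 FPKM in si-circRtn4 (-0.19 ± 0.10, limma adjusted p = 0.282). Rpl36al, Rpl36a-ps1 and Rpl27-ps3 had at most 76 reads in a library, and none of them was called. Rpl27-ps3 was called lower with the replicate block (-0.26, limma adjusted p = 0.0394).

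The 5 members below the filter were Rpl3l, a paralog of striated muscle (0.25 to 0.97 FPKM), Rpl10l, which replaces Rpl10 in male germ cells (0 to 2 reads per library), and Rpl9-ps1, Rpl36-ps4 and Rpl13a-ps1, which were listed at 0 in all libraries. Rps19bp1, the only member that is not a ribosomal protein or a copy of one, was 43.3 to 56.1 FPKM in si-NC and 39.7 to 48.3 FPKM in si-circRtn4 (-0.23 ± 0.12, limma adjusted p = 0.274).

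The TOP tract was sought in the RefSeq promoter table (GRCm38.p6), as a C at the annotated start followed by C or T to a run of at least 5 bases on the strand of the gene. It was present in 13 of the 57 parents that matched the table (22.8%), in 1 of 8 copies (12.5%) and in 813 of all 27025 genes (3.01%). Rps27 and Rps27rt both had one. The first 24 bases from the annotated start are shown with the tract in capitals, for chr3:90213625-90213648 and chr9:114982716-114982739, both on the minus strand.
Rps27: CCTTTCCggcggtgacgacctccc
Rps27rt: CTTTCCggcggtgacgacctccct
The tract was 7 bases long in Rps27 and 6 in Rps27rt. The tract was not found at the annotated starts of Rpl7a, Rps2 and Rpl12. The table lists 1 start per gene, so a missing match says only that these letters are not at that base.

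Genes that act beside the ribosomal proteins were described with lists fixed by name. The 3 ribosomal proteins with other names had 0 genes called by limma, and 1 was higher at an unadjusted p below 0.05. Fau, a ubiquitin-like protein fused to a ribosomal protein, had the largest change of these, with 528, 448 and 474 FPKM in si-NC and 538, 563 and 599 FPKM in si-circRtn4 (0.23 ± 0.09, limma adjusted p = 0.170). Among elongation and termination factors, 1 of 13 tested was called higher and 0 lower by limma, beside 4.36% and 4.82% of all genes tested. At an unadjusted p below 0.05, 3 were higher and 1 was lower, and the median log2 fold change was 0.047. The called gene was Etf1, the release factor that reads stop codons, with 27.8, 33.7 and 38.8 FPKM in si-NC and 45.7, 53.0 and 56.0 FPKM in si-circRtn4 (0.62 ± 0.13, limma adjusted p = 0.0298). The groups of Etf1 did not overlap, yet its call was lost without si-NC replicate 1 or 2 or si-circRtn4 replicate 2 or 3 (limma adjusted p = 0.0529 to 0.0971, log2 fold change 0.50 to 0.63). Eif5a, which helps the ribosome past difficult peptide bonds, was separated downward, with 314, 389 and 392 FPKM in si-NC and 199, 284 and 280 FPKM in si-circRtn4 (-0.53 ± 0.16, limma adjusted p = 0.0799). It was called lower with the replicate block (limma adjusted p = 0.0089).

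Of 19 other mRNAs known to carry a TOP tract, 14 matched the promoter table, and the search above found the tract in 3 of these (21.4%). Of the 19, 0 were called by limma (3 higher and 1 lower at an unadjusted p below 0.05) and 10 were above 0, with a median log2 fold change of 0.020. The gene with the largest change was Vim, an intermediate filament protein, with 90.7, 94.0 and 77.9 FPKM in si-NC and 103, 123 and 115 FPKM in si-circRtn4 (0.37 ± 0.10, limma adjusted p = 0.0648), and it was called with the replicate block (limma adjusted p = 0.0337). Among 15 tested regulators of TOP mRNA translation, such as mTOR complex subunits, S6 kinases and Larp proteins, 0 were called by limma (2 higher and 1 lower at an unadjusted p below 0.05) and the median was -0.057. Eif4ebp1, a repressor of cap-dependent translation that mTOR inactivates, was 149, 119 and 148 FPKM in si-NC and 175, 192 and 170 FPKM in si-circRtn4 (0.37 ± 0.11, limma adjusted p = 0.0755). Of 16 tested chaperones and surveillance factors, 0 were called by limma (0 higher and 2 lower at an unadjusted p below 0.05), and the median was -0.031. The import receptor Ipo7 had the largest change of that list (-0.23 ± 0.10, limma adjusted p = 0.190), and it was called lower with the replicate block (limma adjusted p = 0.0475). In all 5 lists together, 1 of 66 genes tested was called without the block (1.52%, beside 9.19% of all genes tested) and 7 with it (10.6%, beside 19.0%).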

How the data were processed

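RNA sequencing of 3 si-NC and 3 si-circRtn4 libraries of N2a cells was used as gene-level FPKM, which the authors deposited as one table with a column per library. The submitters' processing notes name Bowtie 0.12.2 and the builds mm8 and mm9 with no role. The counting tool, annotation and strand setting are not given in the sources used here. Gene coordinates equal those of GENCODE M21 (GRCm38) for 53499 of 54532 genes (98.1%), so that annotation gave the transcripts. Columns of 6 samples outside this series' labels were not used.

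FPKM multiplied by gene length was a whole multiple of 1 step per library for 100% of values (tolerance 0.01 of a read), and reads were recovered this way. They cover listed genes only, at 95.2% to 100.8% of the totals that the scaling implies. Rows with a mean of at least 1 FPKM were tested with limma 3.58.1 (lmFit, eBayes with a trend, R 4.3.3) on log2(FPKM + 1), two-sided, with Benjamini-Hochberg adjustment and a threshold of 0.05. Fold changes are on this scale, with a pseudocount of 1, and understate changes of low genes. The fit was tested on simulated data. Alternatives were a pseudocount of 0.1, no filter, a mean of at least 5 FPKM, TPM with and without Gm23935, quantile normalization, limma-voom on recovered reads, a replicate block, reads of copies added and each library left out.

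Libraries with the same replicate number deviated together (correlations of deviations from the group means 0.331, 0.190 and 0.226, the highest for unequal numbers 0.0091). Deviations within a group cancel out, so these correlations are not independent, and the sample titles give a number but state no pairing. The main fit leaves the replicate number out, and the blocked value is given where it changes a call. The members and lists were chosen with earlier results of these data known. Named genes are the called members, the 5 parents with the highest and 3 with the lowest FPKM, the 3 with the largest rise and fall, the tested copies with their parents, the Rps27 group, and the called or most changed gene of each list. Eif5a, Rps2, Rps3, Rps4x, Rps7, Rps10, Rpl12, Rpl13a, Rpl17, Rpl26, Rpl30 and Rplp2 were added after their values were seen. The single values of 1 member are not reported here. Rps3a1 was counted as a parent, although the naming rule alone would have made it a copy.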

Additional observations from a re-analysis of the deposited data

How the results depend on the processing

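Members called higher numbered 2 as reported, 5 with TPM without Gm23935, 6 with TPM, 7 with limma-voom on recovered reads, 7 with quantile normalization, 0 with no filter (limma), 1 with named copies added, 1 with sequence copies added and 5 with the replicate block (Rps27rt, Rpl7a, Rps2, Rpl13a and Rpl22l1), which also called 2 lower (Rpl21 and Rpl27-ps3) and changed the call of no further member. With no filter, the fit spans all 28442 genes above 0, and the cause of the other moves was not tested. Leaving out 1 library gave 0 to 2 members higher and 0 to 1 lower. Genes called in the related lists numbered 1 as reported, 4 with TPM without Gm23935, 5 with TPM, 7 with limma-voom, 2 at a mean of at least 5 FPKM, 0 with no filter, 4 with quantile normalization, 2 with either addition of copies, 7 with the replicate block and 0 to 1 on leaving out a library. All genes called higher and lower numbered 556 and 615 as reported, 592 and 538 with TPM without Gm23935, and 972 and 393 with TPM. They numbered 902 and 725 with limma-voom, 611 and 640 with quantile normalization, and 210 and 261 with no filter. With the replicate block they were 1185 and 1243, and on leaving out a library 163 to 407 and 217 to 419. The share of the 89 tested members called higher was thus above that of all genes with quantile normalization, limma-voom and TPM without Gm23935. With TPM and in the fit as reported it was below that of all genes. The share of higher calls was 47.5% as reported and 71.2% with TPM. The median of the parents stayed above 0 in all 16 alternatives and was 0.030 to 0.14 on leaving out a library. That of the paralogs and copies was 0.17 with TPM and 0.039 to 0.15 on leaving out a library. These medians stand beside a median of all genes tested that was itself 0.090 with TPM and 0.025 with limma-voom.

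Uncalled genes changed sign as follows. Rpl36 was 0.0071 with TPM without Gm23935, 0.078 with TPM, 0.0078 with limma-voom and 0.088 with quantile normalization. With TPM, Rpl9-ps6 was 0.028 and Rpl22 0.064. With named copies added, Rps27 was 0.079 and Rps10 0.062, and with sequence copies, an addition chosen after seeing the data, Rps27 was 0.081, Rps10 0.061, Rpl29 0.049 and Rpl30 0.094. On leaving out a library, Rpl36 ranged from -0.11 to 0.072, Rpl29 from -0.38 to 0.16, Rpl24 from -0.024 to 0.22, Rpl9-ps6 from -0.20 to 0.091, Rpl10-ps3 from -0.19 to 0.22, Rps12 from -0.13 to 0.14, Rpl22 from -0.13 to 0.030, Rps27a from -0.060 to 0.52, Rpl17 from -0.11 to 0.70, Rps10 from -0.28 to 0.11, Rpl26 from -0.0016 to 0.34, Rpl30 from -0.54 to 0.58 and Rplp2 from -0.0042 to 0.14. All parents have at least 3 exons, so a minimum of 2 exons changed nothing. Depth limits the genes with few reads, such as Rpl29 and Rpl24, whose own values rest on 11 to 45 and 27 to 42 reads.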
